A study of Homo sapiens with 12 samples.

Results

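Transcript levels of 10 genes, the core Polycomb subunits EZH1, EZH2, SUZ12, EED, CBX2, CBX7, RING1 and BMI1 and the H3K27 demethylases KDM6A and KDM6B, were examined in RNA-seq libraries of MiaPaca2 cells, an established human pancreatic ductal adenocarcinoma line. The genes form a list of names drawn up with earlier results of these data known, and all 10 were found among the 63677 Ensembl identifiers of the count tables. There were 12 libraries of wild-type MiaPaca2 cells, 3 in each of 4 groups, all harvested after 24 h of treatment. Unprimed cells received DMSO (Con) or the Vitamin D analogue calcipotriol at 1 µM (CPT). Epigenetically primed cells received glyceryl triacetate at 2 mM, which raises acetyl-CoA, with the DNA methyltransferase inhibitor 5-Aza-2′-deoxycytidine at 1 µM (GTA+5-Aza), either without CPT or with it at 1 µM (CPT+GTA+5-Aza). GTA and 5-Aza were always given together, so their separate contributions cannot be told apart, and a single cell line was sequenced. The labels number the replicates without naming cultures, and the methods of the study describe the samples of an experiment as independent. The p-values set differences between groups against the spread between these libraries, and do not cover variation between cell lines.

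Polycomb proteins keep developmental genes silent through a pair of complexes. PRC2, built on the methyltransferases EZH2 or EZH1 with SUZ12 and EED, trimethylates lysine 27 of histone H3, and PRC1, built on RING1 or its paralogue with a PCGF protein such as BMI1, ubiquitinates histone H2A and, through CBX proteins, binds the methylated H3. KDM6A and KDM6B remove the methyl groups, and the same lysine can carry acetylation in their place.

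5-Aza inhibits the enzymes that methylate CpG dinucleotides. The promoter sequences of the genes that passed the test for a rise in primed cells are therefore shown with CpG in capitals. They are the 250 bases upstream of the start, from RefSeq, build GRCh38.p14, each written 5′ to 3′ on the plus strand of its chromosome. BMI1 has a pair of listed starts, and the more upstream is printed, at chr10:22320849-22321098. KDM6B also has a pair, and the more upstream is at chr17:7833967-7834216. RING1 is at chr6:33208250-33208499.
BMI1: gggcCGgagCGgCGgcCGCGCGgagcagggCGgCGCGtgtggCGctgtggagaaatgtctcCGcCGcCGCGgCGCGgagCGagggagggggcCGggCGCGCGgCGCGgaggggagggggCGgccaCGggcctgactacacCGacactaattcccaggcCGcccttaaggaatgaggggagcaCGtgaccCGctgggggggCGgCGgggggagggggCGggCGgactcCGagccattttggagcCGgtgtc
KDM6B: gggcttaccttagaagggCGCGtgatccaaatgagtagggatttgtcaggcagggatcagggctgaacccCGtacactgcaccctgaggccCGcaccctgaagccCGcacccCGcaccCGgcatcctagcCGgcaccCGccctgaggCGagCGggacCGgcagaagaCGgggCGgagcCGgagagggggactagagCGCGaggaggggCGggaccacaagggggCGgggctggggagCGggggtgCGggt
RING1: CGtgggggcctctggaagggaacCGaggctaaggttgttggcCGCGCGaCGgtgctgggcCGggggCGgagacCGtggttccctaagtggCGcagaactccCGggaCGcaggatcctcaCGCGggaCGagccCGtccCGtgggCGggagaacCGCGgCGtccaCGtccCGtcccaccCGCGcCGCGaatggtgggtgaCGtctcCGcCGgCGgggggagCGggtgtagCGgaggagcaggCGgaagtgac
These windows held 35 CpG in BMI1, 21 in KDM6B and 34 in RING1. Their methylation was not measured here. SUZ12, at chr17:31936757-31937006 on the plus strand, is shown for a match to an E2F motif, in capitals, since E2F factors drive cell cycle genes.
SUZ12: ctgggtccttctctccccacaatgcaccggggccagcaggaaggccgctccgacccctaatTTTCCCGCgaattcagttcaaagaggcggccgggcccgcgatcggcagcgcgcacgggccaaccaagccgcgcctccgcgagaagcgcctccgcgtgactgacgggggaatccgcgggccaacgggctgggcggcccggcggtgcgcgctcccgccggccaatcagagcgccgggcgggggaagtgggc

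Of the 10 genes, 9 had an entry in the RefSeq promoter table and CBX2 had none. Over the full window of 300 bases, 250 before the start and 50 after it, the median of all 35116 promoters was 14 CpG. The windows of EZH1 (30 CpG), SUZ12 (40), EED (16), KDM6A (29), CBX7 (50) and RING1 (41) were above it, as were both windows of EZH2 (46 and 45) and of BMI1 (36 and 65). KDM6B held 24 CpG at its upstream start and 2 at its downstream start. The E2F motifs searched, on both strands, were TTTCCCGC, TTTCGCGC, TTTGCCGC and TTTGGCGC. At least 1 of them was found in EZH1, in SUZ12 and in 1 of the windows of EZH2. Of all promoters, whatever their CpG content, 3.31% held one. That share is per window and not matched for CpG content, so no excess among the members is read from it. A match describes letters only, not a site that is bound.

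Counts are given as CPM, which scales each count to the library total with edgeR's TMM factor, and levels of different genes are compared as CPM per kb of the Ensembl canonical transcript. On that length-adjusted scale, EZH2 was the most abundant of the 10 in Con (59.7 ± 1.51 CPM per kb, mean ± SD, n = 3), above SUZ12 (29.7 ± 1.41). EED (15.5 ± 0.72) and RING1 (15.4 ± 0.48) followed with overlapping libraries, then CBX2 (9.51 ± 0.78) and EZH1 (8.54 ± 0.56), again with overlapping libraries. CBX7 (4.26 ± 0.12), KDM6B (2.94 ± 0.18) and BMI1 (1.43 ± 0.35) were lower, each below the last with no overlap, and KDM6A had no count. BMI1 shares 22.8% of its exon bases with another gene, and reads there may not have been counted for it. Its level per length, and so its place in this order, may therefore be too low. EZH2, the proliferation-associated PRC2 enzyme, thus stood above its paralogue EZH1 in every Con library.

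**Figure D1:**
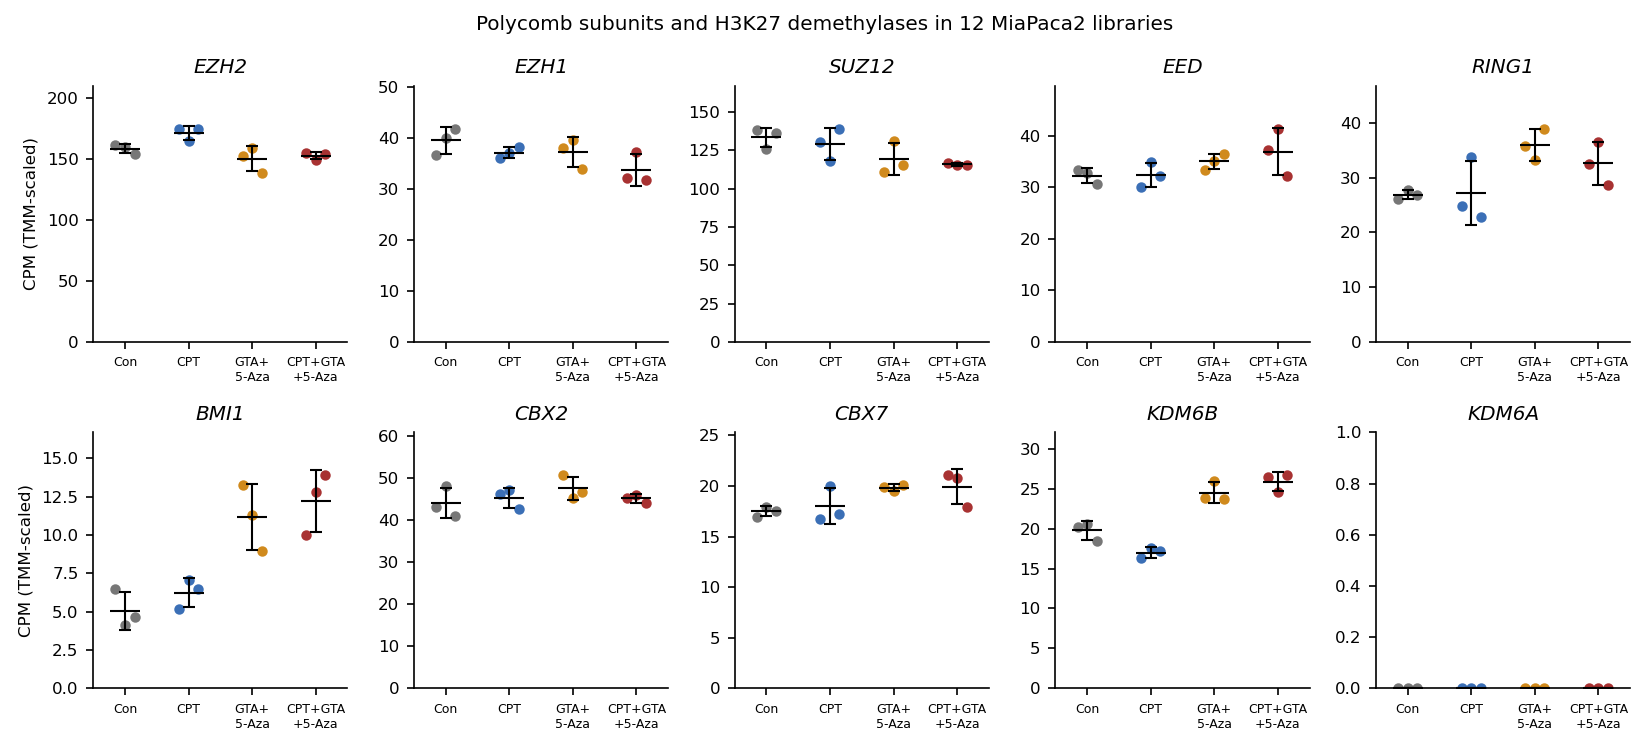
CPM of each of the 10 genes in the 12 libraries, with 1 point per library, the group mean as a horizontal bar and 1 SD as the error bar (n = 3), each gene on its own axis from 0. BMI1 was 4.10 to 7.03 in the unprimed libraries and 8.98 to 13.9 in the primed ones, and KDM6A was at 0 in all 12.

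KDM6A, the X-linked H3K27 demethylase also called UTX, had 0 counts in each of the 12 libraries. The libraries together held 227029110 counts, and the upper limit for a gene without counts, 3 counts, is 0.143 to 0.184 CPM depending on the library, for counting error only. The gene lies on the plus strand of chromosome X from 44873188 to 45112779 (GRCh38, GENCODE v44). No test could be made for it, and no group differed.

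The lack of counts was not particular to KDM6A along that stretch of the chromosome. The protein-coding genes MAOB, NDP, EFHC2, FUNDC1 and DUSP21, which precede KDM6A in this order, also had 0 counts in every library, and DIPK2B, which follows it, had 6 in all. Counts were present at MAOA, 1126 kb before KDM6A, with 187 to 331 per library, and at KRBOX4, 1335 kb after its end, with 387 to 617 per library. Of the 7 protein-coding genes between MAOA and KRBOX4, 6 had no count. By comparison, 30.8% of the 817 protein-coding genes listed on chromosome X and 19.3% of all 19322 had no count in any library. Other kinds of gene in the interval did have counts. Before KDM6A, the processed pseudogenes RBM39P1, RPSAP61 and RRM2P3 had 28, 14 and 6 counts over the 12 libraries. Whether the reads at these pseudogenes came from the genes they resemble was not tested. No other gene listed wholly between MAOA and KDM6A had a count. Beyond DIPK2B, the noncoding RNA genes LINC01204 and MIR222HG had 3659 and 3093 counts. The copy number of the region was not measured here.

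**Figure D2:**
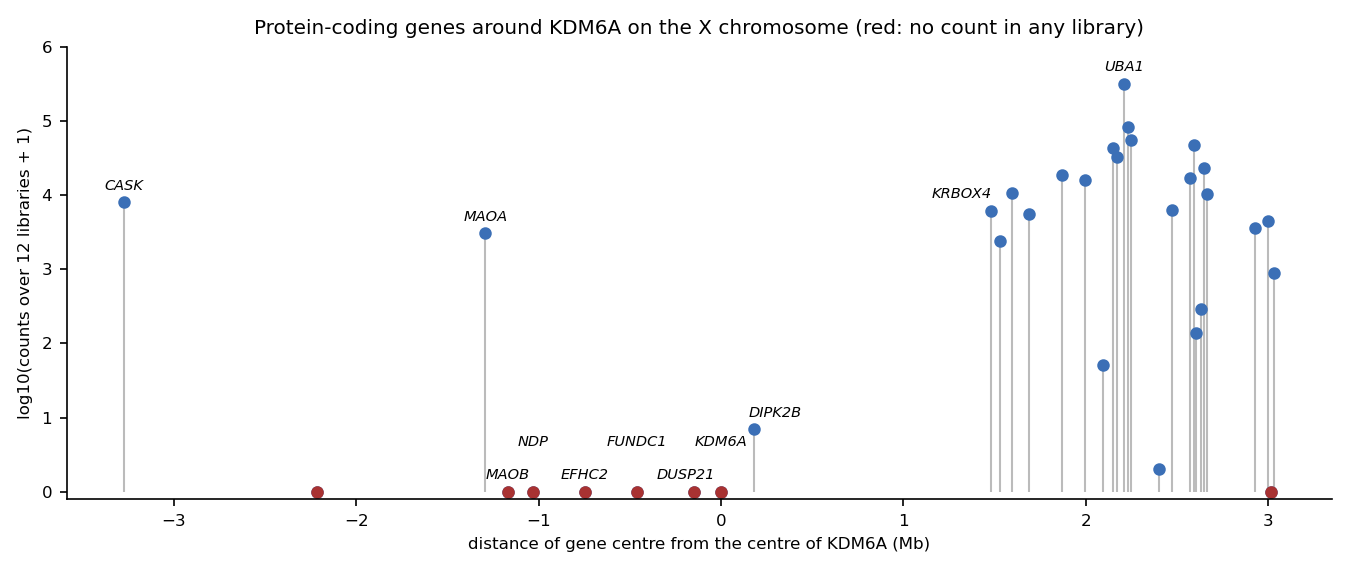
Counts summed over the 12 libraries, as log10(counts + 1), for the 34 protein-coding genes within 3 Mb of KDM6A, against the distance of each gene's centre from that of KDM6A. Red points are genes without a count, and KDM6A is the last of 6 consecutive genes without a count, between MAOA (3051 counts) and DIPK2B (6 counts).

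The first question was what priming alone did to these genes. Of the 10, 9 passed the filter on low counts, and 3 of them rose in GTA+5-Aza against Con. A gene was called when its Benjamini-Hochberg adjusted p, taken over 17123 genes from the quasi-likelihood test of edgeR, was under 0.05. The 3 were BMI1, RING1 and KDM6B, and none fell. Over all genes tested, 17.5% passed in either direction, 9.95% as higher and 7.53% as lower, and with so few members the count of 3 is not read as a result about the group. In CPT+GTA+5-Aza against CPT, which asks the same in the presence of CPT and shares no library with the first comparison, BMI1 and KDM6B rose and none fell, where 17.0% of all genes passed in either direction, 9.57% as higher and 7.39% as lower. The median log2 fold change of the 9 genes was 0.12 without CPT and 0.15 with it, beside 0.01 for all genes in each. In bulk RNA, a change in the share of cells that express a gene and a change of the RNA per cell cannot be told apart.

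**Figure D3:**
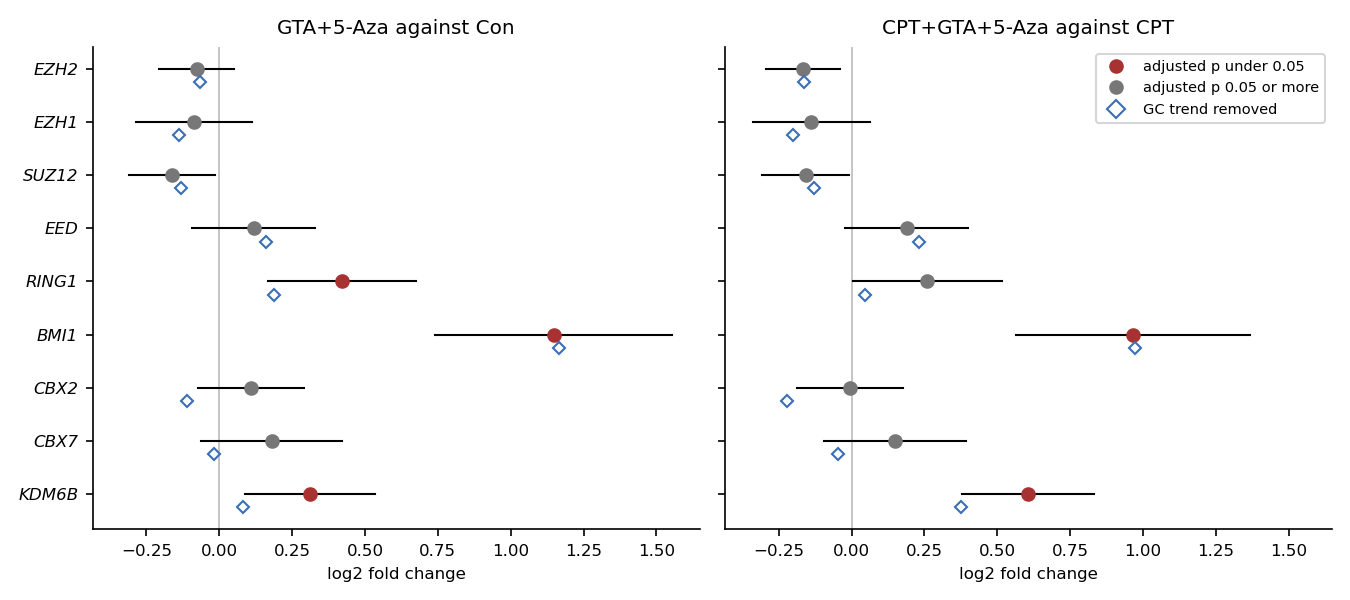
Log2 fold change of the 9 tested genes in primed against unprimed cells, without CPT on the left and with CPT on the right, with 95% confidence intervals as lines. Red circles passed an adjusted p of 0.05, and open diamonds give the value after each library's trend with GC content was removed: BMI1 stayed near 1 in both panels, while KDM6B moved from 0.31 to 0.08 on the left and from 0.61 to 0.38 on the right.

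BMI1 (PCGF4), a PCGF subunit of canonical PRC1, showed the largest change of the 9 genes in both priming comparisons. Its CPM was 6.47, 4.10 and 4.62 in the Con libraries and 13.3, 11.3 and 8.98 in the GTA+5-Aza libraries. In the presence of CPT it was 5.17, 7.03 and 6.50 without priming and 9.98, 12.8 and 13.9 with priming. Every primed library was above every unprimed one. The log2 fold change was 1.15 (SE 0.20, adjusted p = 0.000164), a 2.22-fold rise, without CPT and 0.97 (SE 0.19, adjusted p = 0.000938), a 1.95-fold rise, with CPT. BMI1 is also a gene of few counts here, 86 to 143 per library in unprimed and 159 to 248 in primed cells.

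The BMI1 count has a limit of annotation. BMI1 (chromosome 10, 22321099 to 22331484, plus strand) shares 1000 of its 4395 exon bases, 22.8%, with the readthrough gene COMMD3-BMI1 on the same strand. HTSeq's overlap mode and strand setting are not given in the sources used here, and reads in shared bases may have been assigned to either gene or to none. COMMD3-BMI1 had 0 counts in all 12 libraries. The upstream partner of the readthrough, COMMD3, had only 10 to 33 counts per library, and its log2 fold change with priming was 0.72 (SE 0.50, adjusted p = 0.359) without CPT and 1.41 (SE 0.50, adjusted p = 0.0541) with CPT.

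RING1, one of the alternative E3 ligase subunits of PRC1, was 26.0, 27.7 and 26.8 CPM in Con and 35.7, 33.2 and 39.0 in GTA+5-Aza. The primed libraries were all above the unprimed ones, and the log2 fold change was 0.42 (SE 0.12, adjusted p = 0.0182). With CPT, RING1 was 24.9, 33.8 and 22.9 CPM in unprimed and 32.5, 36.6 and 28.7 in primed cells, and the groups overlapped through the second CPT library. The log2 fold change there was 0.26 (SE 0.12, adjusted p = 0.162), and without that library it was 0.45 (adjusted p = 0.00581). In the comparison without CPT, leaving out Con replicate 1 or 3 or GTA+5-Aza replicate 1 or 3 ended the call, with adjusted p values of 0.0521 to 0.0971.

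CBX2 and CBX7, of the CBX subunits that read H3K27 methylation for PRC1, did not pass in either comparison. CBX7 was 17.0 to 18.0 CPM in Con and 19.5 to 20.1 in GTA+5-Aza without overlap, yet its log2 fold change of 0.18 (SE 0.12) had an adjusted p of 0.332. With CPT it was 16.8 to 20.0 CPM in unprimed and 17.9 to 21.1 in primed cells, with a log2 fold change of 0.15 (adjusted p = 0.447). CBX2 had a log2 fold change of 0.11 (SE 0.09, adjusted p = 0.460) without CPT and of -0.005 (SE 0.09, adjusted p = 0.980) with CPT, and its 12 libraries lay between 41.0 and 50.6 CPM. The ratio of CBX7 to CBX2 per length had group medians of 0.444 in Con, 0.456 in CPT, 0.486 in GTA+5-Aza and 0.510 in CPT+GTA+5-Aza. Between the 6 primed and the 6 unprimed libraries the log2 ratio differed by 0.11, with p = 0.0584 in a two-sided exact permutation test over 924 regroupings and 0.117 after adjustment for the 2 ratios tested. The regroupings took no account of CPT and treat libraries with and without it as alike.

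None of the PRC2 core subunits passed the adjusted threshold in a priming comparison. SUZ12, the scaffold subunit, was 138, 126 and 136 CPM in Con and 111, 131 and 115 in GTA+5-Aza, which overlapped through the second primed library. Its log2 fold change was -0.16 (SE 0.07, unadjusted P = 0.0338, adjusted p = 0.129), and -0.24 (adjusted p = 0.0351) without that library. With CPT, SUZ12 was 130.4, 118 and 139 CPM in unprimed and 117, 115 and 115 in primed cells. These groups did not overlap, but the log2 fold change of -0.16 (SE 0.07) had an adjusted p of 0.145, or 0.0225 without CPT replicate 2.

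EZH2 was 162, 159.9 and 154 CPM in Con and 152, 159 and 139 in GTA+5-Aza, overlapping groups with a log2 fold change of -0.08 (SE 0.06, adjusted p = 0.450). With CPT it was 175, 164 and 175 CPM in unprimed and 155, 149 and 154 in primed cells. The primed libraries were all lower there, with a log2 fold change of -0.17 (SE 0.06, adjusted p = 0.0669). That value was on the other side of the threshold in DESeq2 (adjusted p = 0.0404) and without CPT replicate 2 (adjusted p = 0.0246), so EZH2 in the presence of CPT is borderline.

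EZH1, the paralogue of EZH2 that prevails in resting cells, was 36.8 to 41.9 CPM in Con and 33.9 to 39.7 in GTA+5-Aza. Its log2 fold change was -0.09 (SE 0.10, adjusted p = 0.613), and with CPT -0.14 (SE 0.10, adjusted p = 0.387). EED, the subunit that binds trimethylated H3K27, was 30.6 to 33.4 CPM in Con and 33.4 to 36.5 in GTA+5-Aza, groups that parted only at the third decimal. The log2 fold change of EED was 0.12 (SE 0.10, adjusted p = 0.494) without CPT and 0.19 (SE 0.10, adjusted p = 0.227) with CPT. The ratio of EZH1 to EZH2 per length had a median of 0.143 in Con and in GTA+5-Aza, 0.126 in CPT and 0.119 in CPT+GTA+5-Aza. It differed by 0.01 on the log2 scale between primed and unprimed libraries (two-sided exact permutation p = 0.887). That test too took no account of CPT, although the CPT libraries were all below those of Con (0.118 to 0.130 against 0.130 to 0.156).

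In GTA+5-Aza against Con, 5 of the 9 tested genes had every primed library above every unprimed one (EED, KDM6B, CBX7, RING1 and BMI1) and 0 had every library below, where 18.1% of all genes were separated upwards and 16.0% downwards. In CPT+GTA+5-Aza against CPT, 2 were separated upwards (BMI1 and KDM6B) and 2 downwards (EZH2 and SUZ12), where the shares of all genes were 16.4% and 14.4%.

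KDM6B (JMJD3), the inducible H3K27 demethylase and the only member of the pair with counts, was 20.2, 20.6 and 18.4 CPM in Con and 23.8, 26.0 and 23.8 in GTA+5-Aza. With CPT it was 16.3, 17.5 and 17.2 CPM in unprimed and 26.4, 24.5 and 26.7 in primed cells. The groups did not overlap in either comparison. The log2 fold change was 0.61 (SE 0.11, adjusted p = 0.000309), a 1.52-fold rise, with CPT and 0.31 (SE 0.11, adjusted p = 0.0478), a 1.24-fold rise, without it. The value without CPT is close to the threshold, and leaving out any 1 of its 6 libraries ended the call, with log2 fold changes of 0.26 to 0.34 and adjusted p values of 0.0625 to 0.187. The difference between the log2 fold changes with and without CPT was 0.30 (SE 0.15, unadjusted P = 0.0669, adjusted p = 1.00), so the priming effects on KDM6B were not shown to differ.

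The log2 fold changes with priming followed the GC content of exons across genes. Over the 16472 tested genes with a GC value, the median log2 fold change in GTA+5-Aza against Con was -0.09 in the 2518 genes under 40% GC and 0.19 in the 2236 genes at 60% or more, and with CPT it was -0.09 and 0.17. KDM6B (61.6% GC) and RING1 (61.2%) were in the highest class, CBX2 was at its edge (60.0%), CBX7 at 58.2%, EZH1 at 49.1%, EZH2 at 40.3%, and BMI1 (39.9%), SUZ12 (38.4%) and EED (36.4%) were in the lowest. Removing each library's GC trend shifted the median log2 fold change of all genes to -0.06 without CPT and -0.07 with CPT. It also turned the split of calls, from 9.95% higher and 7.53% lower to 7.24% higher and 15.2% lower without CPT, and from 9.57% and 7.39% to 7.48% and 16.5% with CPT. BMI1 was then the only one of the 9 called without CPT (log2 fold change 1.17, adjusted p = 3.1e-05). RING1 was at 0.19 (adjusted p = 0.181) and KDM6B at 0.08 (adjusted p = 0.675). With CPT, 4 were called after the removal, BMI1 (0.97) and KDM6B (0.38, adjusted p = 0.0142) as higher and EZH2 (-0.16, adjusted p = 0.0156) and CBX2 (-0.22, adjusted p = 0.0397) as lower, where 24.0% of all genes were called.

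**Figure D4:**
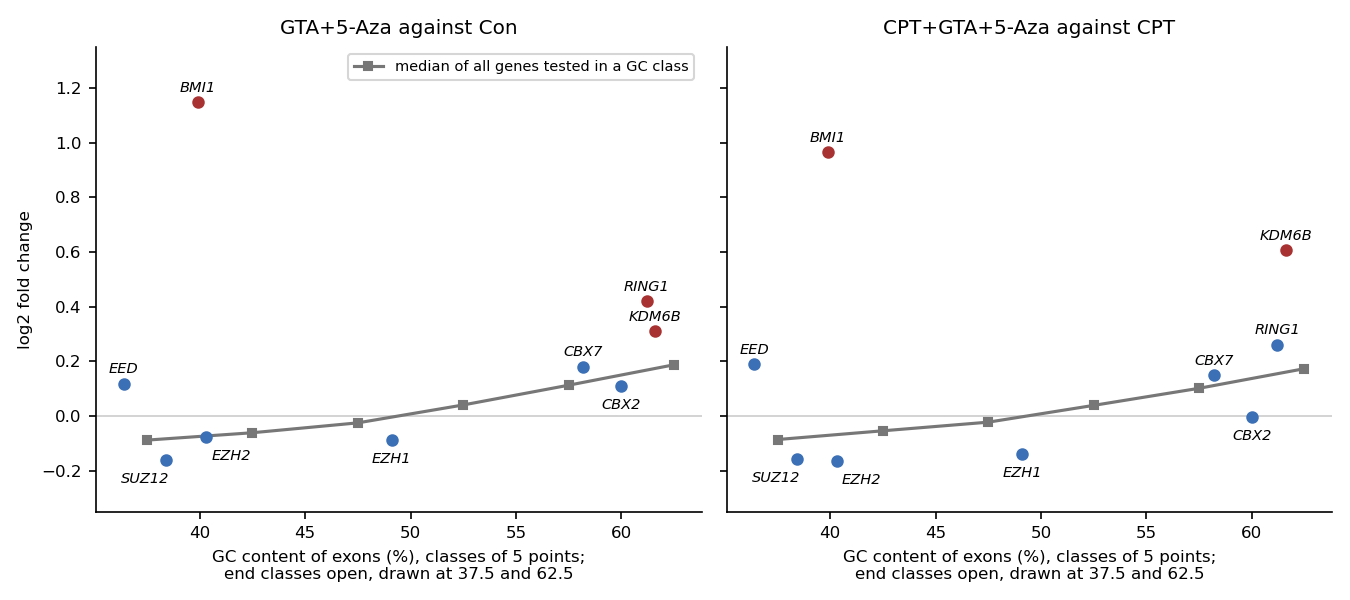
Log2 fold change against exon GC content in GTA+5-Aza against Con (left) and CPT+GTA+5-Aza against CPT (right), for the 9 tested genes (red circles passed an adjusted p of 0.05, blue did not) and the median of all genes in 6 GC classes (squares). The medians rise from -0.09 to 0.19 on the left, KDM6B and RING1 lie at the GC-rich end, and BMI1 lies far above the median of its class.

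CPT itself was compared with its vehicle in unprimed and in primed cells. No member passed, and none reached an unadjusted P of 0.05, in CPT against Con (log2 fold changes of -0.22 to 0.31), in CPT+GTA+5-Aza against GTA+5-Aza (-0.14 to 0.12) or in the interaction of CPT and priming (-0.18 to 0.30) by the test of edgeR, and DESeq2 also gave 0 members in each. Over all 17123 genes 0 passed edgeR's adjusted threshold in these comparisons, 0% of those tested. In the same test of edgeR 733 (4.28%), 464 (2.71%) and 451 (2.63%) had an unadjusted P under 0.05. By DESeq2, 4, 1 and 0 genes passed the adjusted threshold. In CPT against Con the libraries of KDM6B were all lower and those of EZH2 all higher, a pair of genes picked after their values were seen, with log2 fold changes of -0.22 (unadjusted P = 0.0596) and 0.11 (unadjusted P = 0.0845). Separation of libraries occurred in 4.21% of all genes downwards and 3.81% upwards in that comparison. The 95% confidence interval of BMI1, the widest, ran from -0.11 to 0.73 in CPT against Con and from -0.26 to 0.51 in primed cells, so changes within these bounds remain possible.

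In CPT+GTA+5-Aza against Con, which shares its Con libraries with the first comparison, BMI1 (log2 fold change 1.27, SE 0.20, adjusted p = 4.7e-05) and KDM6B (0.39, SE 0.11, adjusted p = 0.0134) were higher and none was lower in edgeR's quasi-likelihood test, where 16.8% of all genes passed in either direction, 9.62% as higher and 7.16% as lower. SUZ12, at -0.20 (SE 0.07), had an adjusted p of 0.0533 and libraries that were all below those of Con. It passed as lower in DESeq2 (adjusted p = 0.0390) and in 5 other alternatives of the 15, among them RLE scaling (0.0492), and its adjusted p ran from 0.00648 to 0.168 over all of them. The KDM6B call was lost without Con replicate 3, CPT+GTA+5-Aza replicate 1 or CPT+GTA+5-Aza replicate 3, where its adjusted p reached 0.0788, and after the GC trend was removed (adjusted p = 0.269).

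Genes that work with these subunits were listed by role, and at most 3 in each direction that passed in both priming comparisons are named per list. Among 9 tested genes of the other PRC2 subunits, 1 fell without CPT and the same 1 with CPT. It was PHF19, a Polycomb-like protein that brings PRC2 to CpG islands, at -0.38 (SE 0.06, adjusted p = 0.000145) and -0.29. Among 20 tested genes of the other PRC1 subunits, 5 rose and 4 fell without CPT, and 4 rose and 2 fell with CPT, where 17.5% and 17.0% of all genes passed in either direction. BCORL1, a corepressor of the variant PRC1.1, rose by a log2 fold change of 0.72 (47.7 to 78.6 CPM, adjusted p = 2.2e-07) and by 0.76 with CPT. The chromodomain gene CBX6 rose from 165 to 227 CPM (0.46, and 0.43 with CPT) and the polyhomeotic gene PHC2 by 0.22 in both comparisons, while PCGF3 (-0.38 and -0.33) and PHC3 (-0.23 and -0.36) fell. The median of the other PRC1 subunits was -0.12 without CPT and 0.03 with CPT.

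The list of the PR-DUB complex, which removes ubiquitin from H2A, had 3 of 9 tested genes lower and 0 higher in both priming comparisons, where 7.53% and 7.39% of all genes were lower. They were its catalytic subunit BAP1 (-0.22 in both), its cofactor ASXL2 (-0.26 and -0.29) and the forkhead protein FOXK2 (-0.23 and -0.25), each at 101 to 151 CPM. Of 8 tested partners of KDM6A in the KMT2C and KMT2D complexes, 2 fell without CPT and 1 with CPT. The one in both was the H3K4 methyltransferase KMT2C, which fell from 159.7 to 139.5 CPM without CPT (-0.20, adjusted p = 0.0472) and by 0.21 on the log2 scale with CPT (adjusted p = 0.0369). The list medians were -0.09 and -0.11 for PR-DUB and -0.08 and -0.09 for the partners of KDM6A.

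Developmental regulators that are textbook Polycomb targets were mostly below the filter, with 14 of 50 tested. Of these, 2 rose without CPT, 1 rose with CPT and 0 fell. Of all genes, 9.95% rose and 7.53% fell without CPT, and 9.57% and 7.39% with CPT, so the counts are not read as a result about the list. WT1, a kidney and mesothelium transcription factor, rose in both, from 3.24 to 9.68 CPM without CPT (log2 fold change 1.58, SE 0.24, adjusted p = 4.7e-05) and by 1.60 with CPT. A gene can pass the filter through its level in primed cells alone, which favours a difference, so this count carries no weight beyond the genes named. WT1 itself had 55 to 86 counts per library in Con and 38 to 76 in CPT.

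Because EZH2 transcription follows the cell cycle in many cells, genes of DNA replication and division were listed as well. Of 19 tested, 2 rose and 6 fell without CPT, and 3 rose and 6 fell with CPT, with list medians of -0.11 and -0.13. Of all genes, 9.95% rose and 7.53% fell without CPT, and 9.57% and 7.39% with CPT. The mitotic genes CCNB1 (-0.39 and -0.42), PLK1 (-0.37 and -0.32) and BUB1 (-0.31 and -0.20) fell, while CDK1 (0.26 and 0.22) and the kinase AURKB (0.23 and 0.23) rose. Their part in the values of EZH2 and SUZ12 was not tested.

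Patterns most like those of the members were sought over the 12 libraries among 12368 protein-coding genes, for the member with the smallest p that was higher and the one that was lower in GTA+5-Aza against Con. For BMI1 these were AIFM2 (Pearson r = 0.969), ASF1B (0.949) and APEX2 (0.946), and for SUZ12 they were EEF1A1 (0.961), YWHAQ (0.959) and GMPS (0.955). The libraries share their treatment, so these are descriptions.

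Library totals were 16162490 to 21224665 counts. The line's epithelial and mesenchymal genes KRT8, KRT18 and VIM were abundant in all groups. Of 11 markers of other cell types, 5 were at 0 in every library. Their summed level, nearly all of it from the collagen gene COL3A1, was 90.3 to 101 CPM in Con, 85.0 to 92.9 in CPT, 116 to 127 in GTA+5-Aza and 101 to 109 in CPT+GTA+5-Aza. It was thus higher with priming in both comparisons. By edgeR's test COL3A1 rose by a log2 fold change of 0.34 without CPT (adjusted p = 0.00133). With CPT its 0.20 did not pass (adjusted p = 0.0602), unlike BMI1 and KDM6B, which passed in both. COL1A1, another fibroblast collagen, was at 0.13 CPM in Con and 1.70 in GTA+5-Aza (log2 fold change 3.62, adjusted p = 0.000425) and rose by 3.46 with CPT (adjusted p = 0.000934). The part of these markers in the values of BMI1 and KDM6B was not tested.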

How the data were processed

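RNA-seq was performed by the authors in 12 MiaPaca2 libraries, grouped by their labels. Per the labels and methods, reads were trimmed with Trim Galore, aligned to GRCh38 with HISAT2 2.2.1 and counted with HTSeq. The files deposited by the authors hold raw counts for each gene, not normalized. The annotation release, strand setting and overlap mode are not given in the sources used here. Of 63677 identifiers, 11496 are not in GENCODE v44, which holds 99.0% of the counts. Rows that name no gene hold 0% of them.

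Counts were joined by identifier and analysed in R 4.3.3 with edgeR 4.0.16 (filterByExpr, TMM, glmQLFit and glmQLFTest, all 12 libraries in 1 fit). Benjamini-Hochberg adjustment was made over 17123 genes, and genes with an adjusted p under 0.05 were called. Alternatives were DESeq2 1.42.0, the likelihood ratio test, other scalings and filters, only the groups compared, a replicate block, removal of each library's loess trend with GC content, and leaving out each library. The script was tested on simulated counts. No replicate repeats another of its group, as the chi-square of counts between them, divided by its degrees of freedom, was 3.88 to 16.6 in 12 pairs.

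The members and gene lists were chosen with earlier results of these data known. All members are named. From other lists, up to 3 genes higher and 3 lower with the largest change are named, among those that passed in both priming comparisons in 1 direction. Promoters are RefSeq windows. Depth was 16162490 to 21224665 counts per library, and limits from a count of 0 (3 counts) cover counting error only.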

Additional observations from a re-analysis of the deposited data

How the results depend on the processing

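BMI1 stayed called under all 15 alternatives in GTA+5-Aza against Con (log2 fold change 1.01 to 1.36) and in CPT+GTA+5-Aza against CPT (0.84 to 1.09), and KDM6B stayed called under all 15 in the second (0.38 to 0.65). In the first, KDM6B lost its call under 11 of 15 and RING1 under 5 of 15. With the GC trend removed, 1 member was called without CPT and 4 with CPT, and CBX2 (-0.11) and CBX7 (-0.017) without CPT and CBX7 (-0.046) with CPT turned negative. That setting moved the median of all genes to -0.06 without CPT and -0.07 with CPT, so CBX7 stayed above the median gene. CBX2 with CPT turned positive by library size only (0.035, where the median of all genes was 0.045) and without CPT replicate 1 (0.0024), CPT replicate 2 (0.022) or CPT+GTA+5-Aza replicate 3 (0.012), and ran from -0.052 to 0.022 with a library left out. The cause of the changes with a library left out was not tested. Fits of only the groups compared called 4 members in CPT+GTA+5-Aza against Con. Leaving out 1 library each gave 1 to 3 members without CPT, 2 to 5 with CPT, the 5 without CPT replicate 2, and 1 to 3 in CPT+GTA+5-Aza against Con. No member was called in a comparison of CPT with vehicle, or in the interaction, under any alternative.

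Over all genes, 1930 to 3841 were called without CPT and 1953 to 4111 with CPT, the fewest without GTA+5-Aza replicate 3 and CPT+GTA+5-Aza replicate 2 and the most with the GC trend removed. The number of genes called changed for the lists as follows, without CPT first. For the KDM6A partners (2, then 1) it was 1 and 0 by library size only, 1 without CPT under no filter on low counts, 4 and 4 with the GC trend removed, 0 with CPT in the fit of the groups compared, and 0 to 2 and 0 to 1 with a library left out. For the developmental regulators (2, then 1) it was 4 without CPT under no filter, 3 with CPT with the GC trend removed and 1 to 3 without CPT with a library left out. For PR-DUB (3, then 3) it was 5 and 5 with the GC trend removed. For DNA replication and division (8, then 9) it was 5 with CPT in the fit of the groups compared, and 5 to 7 and 4 to 11 with a library left out. For the other PRC1 subunits (9, then 6) it was 5 to 8 and 3 to 7 with a library left out.

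Same-numbered libraries showed little shared variation, as their 18 correlations ran from -0.08 to 0.12 (median 0.001). The labels do not say whether the samples were paired, and the correlations cannot settle it. With the replicate number as a block, 2 members were called both without and with CPT, KDM6B losing its call without CPT (log2 fold change 0.31, adjusted p = 0.0608), and 1 KDM6A partner was called without CPT. Few counts limit BMI1 and COMMD3, and KDM6A, at 0, gives no value under any setting.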
